A study of Mus musculus with 12 samples.

Results

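Integrins and laminins, the cell surface receptors for extracellular matrix and the trimeric glycoproteins of basement membranes, were followed in the mesenchyme of the developing bladder and urethra. The members were all genes of the deposited count tables whose symbol names an integrin α subunit, an integrin β subunit or a laminin α, β or γ chain. This gave 37 of 55228 genes, of which 18 encode integrin α subunits, 8 integrin β subunits and 11 laminin chains. Poly(A) RNA was sequenced from untreated wild-type CD-1 mouse embryos, an outbred strain. The 4 groups were bladder mesenchyme at E18.5, urethral mesenchyme at E18.5, bladder mesenchyme at E14.5 and urethral mesenchyme at E14.5, where E counts embryonic days. Each group had 3 libraries, each made from the pooled female embryos of 1 litter, after trypsin had loosened the epithelium and it had been pulled away by hand.

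Integrins are heterodimers of 1 α and 1 β subunit, and the α subunit largely sets the ligand: collagen, laminin, the RGD peptide of fibronectin and vitronectin, or cell surface partners such as VCAM1. Laminins are trimers of 1 α, 1 β and 1 γ chain that polymerise into the sheet on which epithelia rest and which surrounds each smooth muscle cell. In the bladder wall, the inner mesenchyme faces the urothelial basement membrane and the outer mesenchyme becomes the detrusor, the smooth muscle coat, whose cells anchor to matrix through integrins.

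Total counts per library ranged from 21495169 to 36349777, and 3 counts corresponded to 0.0761 to 0.161 CPM. Levels are CPM, counts relative to the library total after its scaling by the trimmed mean of M values (TMM). The summed level of 10 smooth muscle markers was 26641 to 48331 CPM in E18.5 bladder and 3063 to 3543 CPM in E18.5 urethral libraries, and 7703 to 10076 CPM in E14.5 bladder and 2140.4 to 4426 CPM in E14.5 urethral libraries. Although the label is mesenchyme, 14 epithelial markers, none of them at 0, summed to 9313 to 12470.0 CPM in E18.5 bladder, 2818 to 4262 CPM in E18.5 urethral, 344 to 1677 CPM in E14.5 bladder and 699 to 1514 CPM in E14.5 urethral libraries. Replicate 1 held the highest epithelial sum of both E14.5 groups, so several results that rest on it are also given without it. In bulk tissue, fewer cells of a type and less RNA per cell cannot be told apart.

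Of the 37 members, 34 passed the filter on low counts. Itgad, Itgae and Itgax, α subunits that leukocytes pair with Itgb2 or Itgb7, did not pass and stayed at or below 0.492 CPM in every library. Levels of different genes were compared only per kilobase of summed exon length. On that scale 1 integrin α subunit stood above all others in bladder mesenchyme: Itga5, the fibronectin receptor, made up 53.4% ± 7.78 of the summed α subunit level at E18.5 and 45.2% ± 2.67 at E14.5 (SD, n = 3 each). In urethral mesenchyme its share was 17.7% ± 1.19 at E18.5 and 29.4% ± 1.01 at E14.5, where it also stood above all others, with Itga8 next at 18.3% ± 2.71. At E18.5 the urethral α subunits were spread more evenly, with Itga3 at 15.7% ± 2.95, Itga6 at 14.7% ± 1.14, Itga8 at 12.5% ± 2.84 and Itga4 at 10.9% ± 2.26, and the ranges of neighbouring shares overlapped. In E18.5 bladder mesenchyme Itga3 held 16.3% ± 5.14, with a range that overlapped the urethral one. By contrast, Itga8 held 2.29% ± 0.12 and Itga4 0.9603% ± 0.27 there.

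Among β subunits, Itgb1, the common partner of most α subunits, held 73.99% ± 5.48 of the summed per-length level in E18.5 bladder, 74.7% ± 0.762 in E18.5 urethral, 80.6% ± 1.33 in E14.5 bladder and 77.8% ± 2.03 in E14.5 urethral mesenchyme. Itgb5, a partner of Itgav, was next with 10.1% ± 2.78 in E18.5 bladder, 16.1% ± 0.988 in E18.5 urethral, 14.98% ± 1.35 in E14.5 bladder and 18.7% ± 2.46 in E14.5 urethral mesenchyme. Itgb3, another partner of Itgav, reached 9.73% ± 2.01 in E18.5 bladder mesenchyme, where its range overlapped that of Itgb5, but 0.7495% ± 0.182 in E18.5 urethral mesenchyme. The ratio of Itgb3 to Itgb5 per length was 1.01 ± 0.291 in bladder and 0.0468 ± 0.012 in urethral mesenchyme at E18.5, and 0.219 ± 0.05 in bladder and 0.0312 ± 0.00456 in urethral mesenchyme at E14.5.

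Setting bladder against urethral mesenchyme at E18.5 addressed the stated aim of the study, expression that differs between the compartments. Bladder mesenchyme had more mRNA of the collagen receptor Itga1, the fibronectin receptor Itga5 and the β subunits Itgb1 and Itgb3, and less of Itga4 and Itga8. Of the 34 tested members, 11 were higher and 3 lower in bladder mesenchyme by edgeR's quasi-likelihood test with Benjamini-Hochberg adjustment over all genes tested and a threshold of 0.05. In the same comparison 34.8% of all genes passed, 18.52% higher and 16.2% lower, and in 52.1% of all genes the libraries of the groups did not overlap, 27.9% higher and 24.2% lower. The median log2 difference was 0.394 over the 34 tested members and 0.0474 over all genes tested. By role, 1 of 4 collagen-binding, 1 of 3 laminin-binding and 2 of 4 RGD-binding α subunits were higher, and 1 RGD-binding one lower.

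Itga1 binds collagens with Itgb1. It had 668, 496 and 282 CPM in the 3 E18.5 bladder libraries, against 99.1, 74.6 and 77.4 CPM in the urethral ones, a log2 difference of 2.52 ± 0.27 (SE, adjusted p = 2.99e-05). Itga5 had 1142, 1063 and 519 CPM in bladder libraries, against 119, 119.7 and 94.8 CPM in urethral libraries, a log2 difference of 3.03 ± 0.28 (adjusted p = 1.18e-05). For both genes the groups did not overlap. Replicate 3 was the lowest bladder library for both genes and for the smooth muscle sum, but replicate 1 was the highest for the genes and replicate 2 for the sum. The part of smooth muscle in the differences of Itga1 and Itga5 was not tested. Their common partner Itgb1 had 2078, 1977 and 1277 CPM in bladder libraries, against 819.8, 827 and 729 CPM in urethral libraries (1.17 ± 0.20, adjusted p = 0.000651). Itgb3, which forms the vitronectin receptor with Itgav and the platelet fibrinogen receptor with Itga2b, had 495, 292 and 241 CPM in bladder, against 8.55, 13.1 and 12.7 CPM in urethral libraries (4.91 ± 0.34, adjusted p = 2.91e-06). It was the member with the largest difference, and its lowest bladder library was far above its highest urethral one. Itga2b, the α subunit of platelets, had 5.67 ± 0.784 CPM in bladder and 5.24 ± 0.799 CPM in urethral mesenchyme and did not pass the test (0.11, adjusted p = 0.84). The summed level of 7 platelet and megakaryocyte markers was 25.6 to 35.99 CPM in bladder and 17.2 to 57.9 CPM in urethral libraries, and of the 4 that were tested Pf4 was higher (1.93), Ppbp (-4.68) and Treml1 (-1.98) were lower and Gp9 (0.02) was not called, a median of -0.981. Their part in the Itgb3 difference was not tested. Replicate 3 was the lowest bladder library for Itgb1 and Itgb3 too, and the part of smooth muscle in these 2 differences was not tested either.

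**Figure D1:**
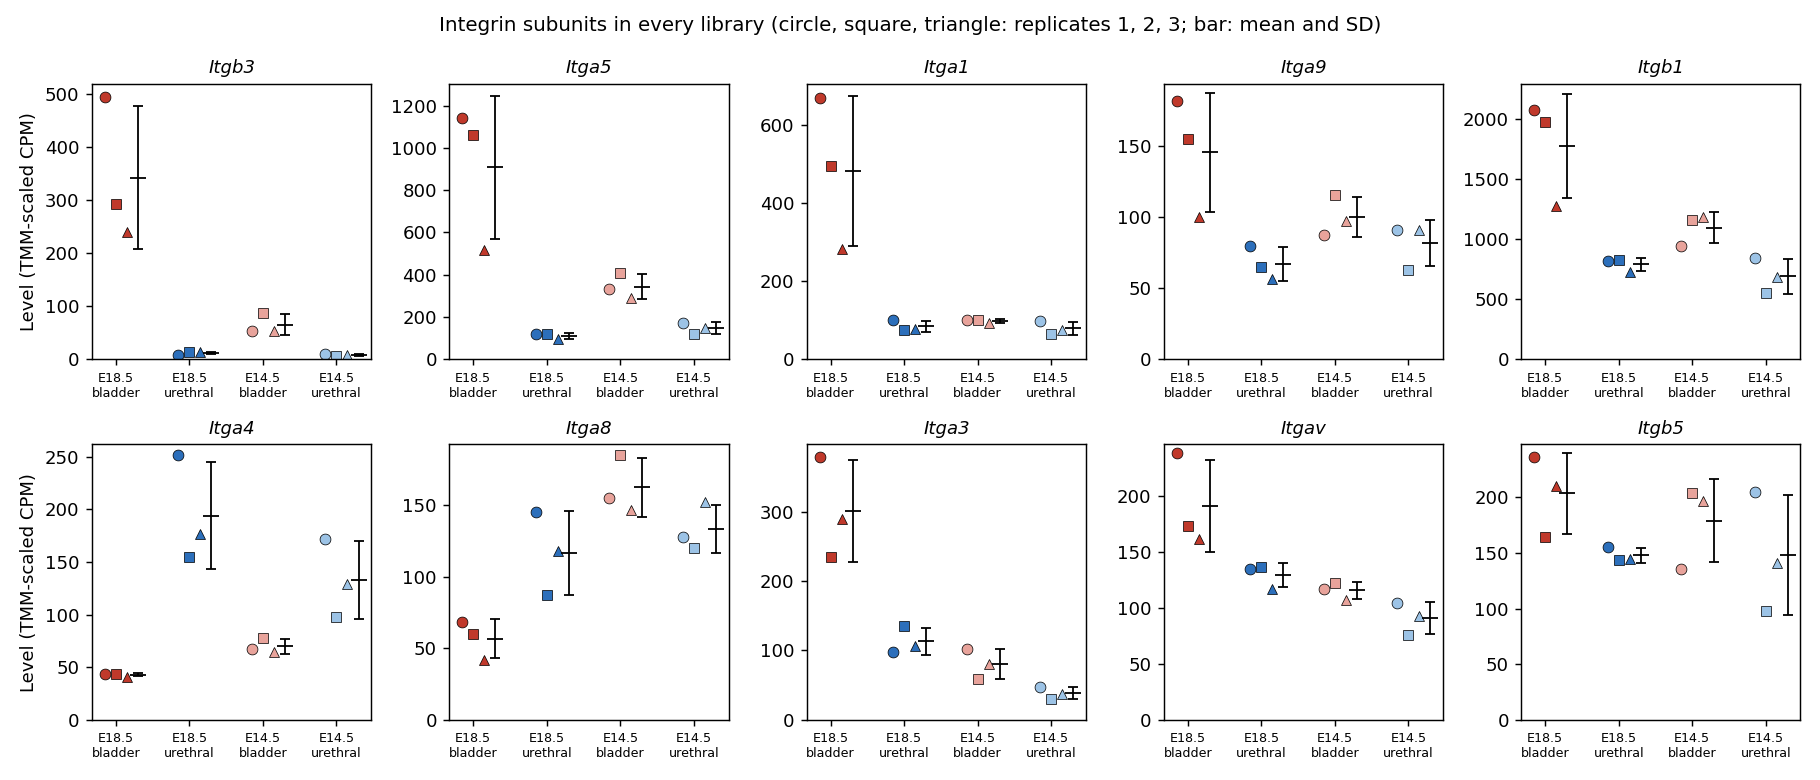
Levels (TMM-scaled CPM, linear axes from 0) of 10 integrin subunits in the 12 libraries, 1 symbol per library by replicate number, with the mean and SD of each group beside them. Itgb3, Itga5 and Itga1 are high in the 3 E18.5 bladder libraries and low in all urethral ones, while Itga4 is lower in bladder at both stages and Itga8 is lowest in E18.5 bladder.

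The α4 and α9 subunits form a small subfamily that binds VCAM1, fibronectin and other ligands, and they went in opposite directions. Itga4 had 43.8, 43.98 and 41.1 CPM in E18.5 bladder libraries, against 251, 154 and 177 CPM in urethral libraries, a log2 difference of -2.18 ± 0.21 (adjusted p = 1.47e-05). Itga9 had 182, 155 and 99.7 CPM in bladder, against 79.5, 65.03 and 56.1 CPM in urethral libraries (1.12 ± 0.22, adjusted p = 0.00189). Bladder libraries were all below the urethral ones for Itga4 and all above them for Itga9. Of the summed Itga4 exon length, 8.04% overlaps exons of Cerkl on the opposite strand. Such overlap covers 5.05% of the Itga8 exon length (E030013I19Rik) and 5.9% of that of Itgav (Gm13684). Whether reads were counted by strand is not given in the sources used here. Itga8, which binds nephronectin and is needed for kidney outgrowth in mice, had 68.2, 60.01 and 41.5 CPM in bladder, against 145, 86.8 and 118 CPM in urethral libraries (-1.04 ± 0.21, adjusted p = 0.00182). Its ligand gene Npnt averaged 119 ± 28.2 CPM in bladder and 378 ± 59.9 CPM in urethral mesenchyme and was lower too (-1.67 ± 0.36, adjusted p = 0.004299). Itgav, the shared α subunit of several RGD receptors, was higher at 191 ± 41.2 CPM in bladder, against 129 ± 10.6 CPM in urethral mesenchyme (0.56, adjusted p = 0.0137). Itgam, a macrophage and neutrophil subunit, was lower in bladder at 0.826 ± 0.131 CPM, against 1.91 ± 0.463 CPM in urethral mesenchyme (-1.19, adjusted p = 0.0446). Of the 10 leukocyte markers, which summed to 333 to 411 CPM in bladder and 289.8 to 307 CPM in urethral libraries, Mrc1 was higher (1.52), C1qa lower (-0.86) and the others were not called, a median of -0.295. Of the Itgam exon length, 68.7% overlaps exons of Gm49368 on the same strand, so its count is uncertain.

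Markers of other cell types also differed at E18.5, where 34.8% of all genes passed, 18.52% higher and 16.2% lower. All 7 neuron markers were lower in bladder mesenchyme and summed to 53.5 to 128 CPM in bladder, against 532 to 1459 CPM in urethral libraries. Of 6 glia markers 5 were lower, with sums of 149 to 185 CPM in bladder and 191 to 277 CPM in urethral libraries, and of 8 endothelium markers 3 were lower, with sums of 317 to 440.3 CPM in bladder and 538 to 612 CPM in urethral libraries. Of 5 mesothelium markers 4 were higher in bladder and 0 lower. The part of these cells in the lower Itga4 and Itga8 and in the higher members was not tested.

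The promoters of Itga5 and Itga1, whose E18.5 differences were the highest among the α subunits, and of Itga4 and Itga8, the α subunits called lower beside Itgam, are printed to show what lies around their start sites. Each runs 5′ to 3′ on the gene's strand from 250 bases before to 50 bases after the start, from RefSeq on GRCm38.p6, with matches of GGGCGG on either strand (CCGCCC on the reverse), the core of the GC box, in capitals. The windows are chr15:103366742-103367041 on the minus strand for Itga5, chr13:115101915-115102214 on the minus strand for Itga1, chr2:79255176-79255475 on the plus strand for Itga4 and chr2:12301895-12302194 on the minus strand for Itga8.
Itga5: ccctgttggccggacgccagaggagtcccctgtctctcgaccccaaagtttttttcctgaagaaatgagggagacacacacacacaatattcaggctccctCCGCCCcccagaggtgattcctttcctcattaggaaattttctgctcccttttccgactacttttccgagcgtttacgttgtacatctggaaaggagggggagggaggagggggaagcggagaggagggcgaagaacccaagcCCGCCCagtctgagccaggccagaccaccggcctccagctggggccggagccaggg
Itga1: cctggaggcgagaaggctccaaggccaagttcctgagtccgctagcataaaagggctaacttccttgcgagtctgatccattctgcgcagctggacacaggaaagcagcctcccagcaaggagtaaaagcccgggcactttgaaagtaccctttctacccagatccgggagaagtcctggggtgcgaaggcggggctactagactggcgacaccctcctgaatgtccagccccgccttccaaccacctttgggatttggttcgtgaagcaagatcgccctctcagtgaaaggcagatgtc
Itga4: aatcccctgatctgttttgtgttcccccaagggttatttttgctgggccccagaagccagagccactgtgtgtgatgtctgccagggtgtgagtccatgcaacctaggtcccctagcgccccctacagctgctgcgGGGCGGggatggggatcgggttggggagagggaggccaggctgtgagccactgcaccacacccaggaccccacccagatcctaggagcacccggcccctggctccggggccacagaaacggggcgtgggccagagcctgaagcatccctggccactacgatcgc
Itga8: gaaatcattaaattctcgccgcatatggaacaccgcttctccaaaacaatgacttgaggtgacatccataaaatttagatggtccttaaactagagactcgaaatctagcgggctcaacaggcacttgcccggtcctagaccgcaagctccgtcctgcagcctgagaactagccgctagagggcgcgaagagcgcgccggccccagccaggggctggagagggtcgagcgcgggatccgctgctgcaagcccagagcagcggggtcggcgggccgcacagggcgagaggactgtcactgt
The Itga5 window holds 2 GC box cores, 6 and 149 bases before the start, the Itga4 window 1 at 114 bases before it, and those of Itga1 and Itga8 none. Of the 37 members 23 matched the promoter table, and 11 of these (47.8%) held GGGCGG, against 38.2% of 27025 genes. TATAAA was found in 0 of 23 members and 15.7% of all genes, on either strand. The CArG box, the binding motif of serum response factor in smooth muscle promoters, was found in 2 of 23 members and in 1.81% of all genes. Itgb6 held it at 50 and Lama2 at 39 bases before the start of the window's transcript. Both windows lie inside the annotated gene bodies, chr2:60673644-60673943 for Itgb6 and chr10:27616893-27617192 for Lama2. The Itgb6 window at the 5′ end of its gene, chr2:60722554-60722853, held none. The median GC content was 58.8% over the 26 windows of members and 52.7% over all 32851 windows. These are letter matches, and none is a measured binding site.

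The gene bodies lie on GRCm38 at chr15:103344286-103366763 for Itga5, chr11:104608000-104670476 for Itgb3, chr2:79255426-79333123 for Itga4 and chr2:12106632-12301922 for Itga8, as the count tables give them. Itga1 lies at chr13:114953096-115101964, 20995 bases from Itga2, the other broadly expressed collagen receptor α subunit, on the same strand. Itga2 had 27.4, 18.1 and 14.9 CPM in E18.5 bladder libraries and 30.6, 31.8 and 25.98 CPM in urethral libraries and did not pass the test (-0.55, adjusted p = 0.139). Of these neighbours, Itga1 was called higher in bladder and Itga2 was not called.

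Among laminin receptors and laminins at E18.5, Itga3, a laminin-binding α subunit of epithelia and smooth muscle, had 379, 234 and 289 CPM in bladder, against 97.9, 135 and 106 CPM in urethral libraries (1.42 ± 0.24, adjusted p = 0.000625). The groups did not overlap. Itga6 and Itga7, the other laminin-binding α subunits, had log2 differences of 0.01, adjusted p = 0.988, and 0.01, adjusted p = 0.994. Lama5, the α chain of most mature epithelial and vascular basement membranes, had 545, 422 and 539 CPM in bladder, against 283, 252 and 249 CPM in urethral libraries (0.94 ± 0.29, adjusted p = 0.02597). Lamb2, a β chain typical of mature basement membranes, had 378, 273 and 307 CPM in bladder, against 217, 198 and 205 CPM in urethral libraries (0.63 ± 0.20, adjusted p = 0.0279). Lama1, the α chain of the first embryonic laminin, had 25.2, 18.7 and 17.8 CPM in bladder, against 13.4, 9.301 and 10.5 CPM in urethral libraries (0.89 ± 0.26, adjusted p = 0.0176). Bladder libraries were above all urethral ones for each of these laminin chains. Itgb6, a partner of Itgav that epithelia use to activate latent TGFβ, had 30.9, 29.4 and 39.4 CPM in bladder, against 9.62, 16.8 and 11.3 CPM in urethral libraries (1.41 ± 0.43, adjusted p = 0.0234). Lama5, Lamb2 and Itgb6 were measured beside an epithelial marker sum that was also higher in every E18.5 bladder library. Of the 14 epithelial markers 6 were higher, 0 lower and 8 not called, where 34.8% of all genes passed, 18.52% higher. The part of these markers in the differences of the members was not tested. With no filter on low counts, calls of Itgb6, Lama5 and Itgam ended (adjusted p 0.0589, 0.0874 and 0.0846). Those of Itgb6, Lama5, Lamb2, Lama1, Itgav and Itgam each ended without 1 library: adjusted p for all 6 was 0.0501 to 0.109 without bladder replicate 1, for Itgb6, Lama5, Lamb2 and Itgam 0.0511 to 0.0797 without bladder replicate 3 and 0.0565 to 0.131 without urethral replicate 1, for Lama5, Lamb2, Lama1 and Itgam 0.07 to 0.128 without urethral replicate 2, and for Itgb6, Lama5, Lamb2, Lama1 and Itgav 0.0603 to 0.0824 without urethral replicate 3, which left 9 calls. Itgam was also no longer called without bladder replicate 2 (0.124) or without E14.5 bladder replicate 2 (0.0557) or 3 (0.0559), and calls of Itgal (0.0294 to 0.0368 without E14.5 urethral replicate 1 or 2 or E18.5 bladder replicate 1), Itga2 (0.0383 without bladder replicate 1), Lamc1 (0.0378 without bladder replicate 3) and Itgb7 (0.0389 and 0.0406 without E14.5 bladder replicate 1 or 3) arose.

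The composition of the laminin α chains also differed in level per length. In E18.5 bladder mesenchyme Lama5 held 42.4% ± 5.57 and Lama4, the α chain of mesenchymal, vascular and smooth muscle laminins, 41% ± 6.35 of the summed α chain level. In E18.5 urethral mesenchyme Lama5 held 31.3% ± 0.732 and Lama4 47.02% ± 1.12. The Lama5 shares did not overlap between the compartments at E18.5, whereas those of Lama4 did. At E14.5 Lama4 held 67.2% ± 12 in bladder and 50.2% ± 5.82 in urethral mesenchyme, and Lama5 held 19.5% ± 9.1 in bladder and 21.8% ± 3.84 in urethral mesenchyme. Lamb1, the β chain that most laminin trimers share, led its family in all 4 groups. It held 54.2% ± 3.66 in E18.5 bladder, 58.3% ± 0.967 in E18.5 urethral, 70.5% ± 5.59 in E14.5 bladder and 65.3% ± 8.66 in E14.5 urethral mesenchyme of the β chain level.

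**Figure D2:**
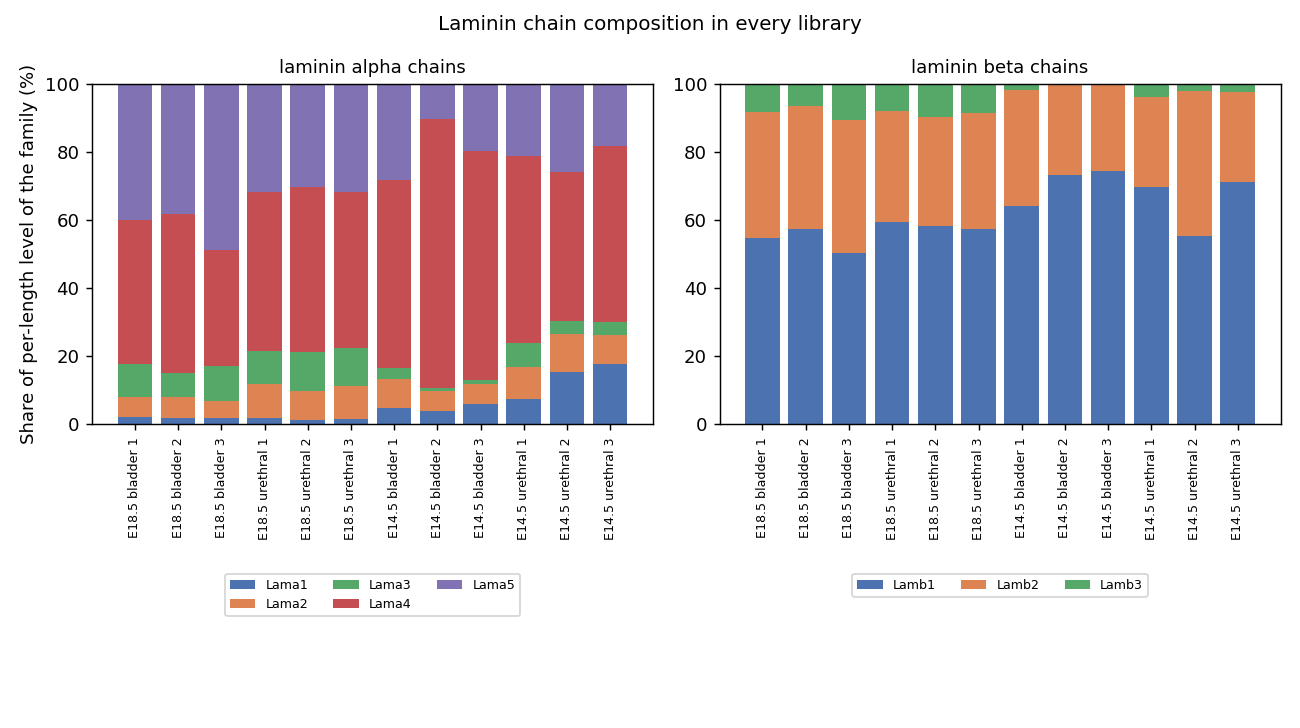
Share (%) of each laminin α chain (left) and β chain (right) in the summed per-length level of its family, stacked for each of the 12 libraries, E18.5 bladder first and E14.5 urethral last. Lama4 and Lama5 together fill most of every α chain bar, and the Lama5 share is largest in the 3 E18.5 bladder libraries.

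Partner genes from 3 lists were read from the same fit, where 34.8% of all genes passed at E18.5, 18.52% higher and 16.2% lower. Of 12 other basement membrane components and laminin receptors, 9 were higher and 0 lower in E18.5 bladder mesenchyme, among them the laminin α5 receptor Bcam (1.79 ± 0.25, adjusted p = 0.000177), the laminin receptor dystroglycan Dag1 (1.25 ± 0.18, adjusted p = 0.000231) and the heparan sulfate proteoglycan perlecan Hspg2 (0.93 ± 0.24, adjusted p = 0.008097). This count was 4 without bladder replicate 1, urethral replicate 2 or urethral replicate 3. Of 27 intracellular adaptors that link integrins to actin, 15 were higher and 1 lower. They included Lims2, a member of the complex that binds integrin-linked kinase, at 172 ± 53.7 CPM in bladder and 9.31 ± 0.897 CPM in urethral mesenchyme (4.21 ± 0.37, adjusted p = 1.38e-05), tensin Tns1 at 1494 ± 546 CPM in bladder and 235 ± 11.02 CPM in urethral mesenchyme (2.67 ± 0.24, adjusted p = 9.07e-06), and vinculin Vcl at 1232 ± 410.5 CPM in bladder and 241 ± 17.2 CPM in urethral mesenchyme (2.35 ± 0.24, adjusted p = 2.18e-05). Several of these adaptors are abundant in smooth muscle, whose 10 markers were all higher in E18.5 bladder mesenchyme, and their part in these differences was not tested. Of 17 integrin ligands other than laminins, 1 was higher and 4 lower, the higher one being fibronectin, Fn1, at 2675 ± 886 CPM in bladder and 1009.8 ± 193 CPM in urethral mesenchyme (1.41 ± 0.25, adjusted p = 0.000832). With only the E18.5 libraries in the fit these ligand counts were 4 higher and 5 lower.

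The same comparison at E14.5 showed a smaller set. Bladder mesenchyme already had more Itga5, Itgb3, Itga3, Itgb1 and Lama4 mRNA, and less Itga4, Itgb8 and Lama1. Of the 34 tested members, 5 were higher and 3 lower, and in this comparison 24.9% of all genes passed, 12.4% higher and 12.5% lower. The libraries did not overlap for 37.7% of all genes, 19.3% higher and 18.47% lower. The median log2 difference was 0.0894 over the 34 tested members and -0.0035 over all genes tested.

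Itga5 had 334, 408 and 288 CPM in the E14.5 bladder libraries, against 173, 118 and 147 CPM in the urethral ones (1.24 ± 0.26, adjusted p = 0.00579). Itgb3 had 52.9, 87.8 and 53.3 CPM in bladder, against 9.34, 5.89 and 7.01 CPM in urethral libraries (3.13 ± 0.32, adjusted p = 0.000128). Itga3 had 103, 58.8 and 80.9 CPM in bladder, against 47.01, 30.4 and 37.4 CPM in urethral libraries (1.08 ± 0.24, adjusted p = 0.00701). None of these 3 subunits had overlapping groups. Itgb1 had 946, 1157 and 1187 CPM in bladder, against 842, 550.0 and 682 CPM in urethral libraries (0.67 ± 0.20, adjusted p = 0.0279), and the groups were separate though close. On the lower side, Itga4 had 67.4, 77.5 and 64.1 CPM in bladder, against 172, 97.9 and 129 CPM in urethral libraries (-0.93 ± 0.20, adjusted p = 0.00673). Itgb8, another partner of Itgav that can activate latent TGFβ, had 20.98, 9.36 and 15.7 CPM in bladder, against 24.3, 28.6 and 28.4 CPM in urethral libraries (-0.82 ± 0.24, adjusted p = 0.0254). All bladder libraries were below all urethral ones for both genes. Itga1 had 98.9, 100.7 and 92.3 CPM in bladder and 96.7, 64.8 and 75.5 CPM in urethral libraries, with overlap, and did not pass the test (0.30, adjusted p = 0.4104), and neither did Itga8 with 155, 185 and 146 CPM in bladder and 128, 119.8 and 152 CPM in urethral libraries (0.29, adjusted p = 0.326). All 7 neuron markers and 4 of 6 glia markers were lower in E14.5 bladder mesenchyme and 3 of 5 mesothelium markers higher. Of all genes 24.9% passed in this comparison, 12.4% higher and 12.5% lower. Of 10 smooth muscle markers 8 were higher and 0 lower, and of 8 mesenchyme markers 6 were higher and 2 lower. The part of these lists in the member differences was not tested. Of the 4 tested platelet and megakaryocyte markers at this stage, Pf4 was higher (2.51), Treml1 lower (-2.01) and Ppbp and Gp9 not called, a median of -0.182, and their part in the Itgb3 difference was not tested.

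Among the laminins, Lama4 had 289, 387 and 273 CPM in E14.5 bladder, against 249, 153 and 217 CPM in urethral libraries (0.62 ± 0.20, adjusted p = 0.04295), and Lama1 had 19.98, 15.8 and 19.8 CPM in bladder, against 26.9, 43.4 and 59.8 CPM in urethral libraries (-1.23 ± 0.26, adjusted p = 0.00549). The groups did not overlap for either chain, and the urethral Lama1 libraries were widely spread. Lama3 and Lamb3, chains that help to anchor epithelial basal cells, had log2 differences of -1.32 and -1.58 that did not pass the test (adjusted p 0.0765 and 0.0548). Without E14.5 bladder replicate 1, the library with the highest epithelial sum of its group, these became -2.29 and -2.74 and passed, as did Itgb4 at -1.79, Itga7 at -1.83 and Lama2 at -0.61, and the calls came to 13. That library also held the highest neuron, glia, skeletal muscle, mesothelium and smooth muscle sums of its group. Its mesenchyme and endothelium sums were the lowest. Calls of Itgb1 and Itgb8 ended without bladder replicate 2 or 3 or urethral replicate 2 or 3 (adjusted p 0.0608 to 0.0958), each of which left 5 calls, and that of Itgb4 arose without E18.5 bladder replicate 2 (0.048). That of Lama4 ended without any E14.5 library other than urethral replicate 1, without E18.5 bladder replicate 2 and without any E18.5 urethral library (0.0511 to 0.167), and with median-ratio size factors (0.0506). With only the E14.5 libraries in the fit, calls of Itgb8 (0.0711) and Lama4 (0.0768) ended.

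In the E14.5 comparison 24.9% of all genes passed, 12.4% higher and 12.5% lower. Partner genes at E14.5 included 4 higher and 1 lower of the 12 basement membrane components and laminin receptors, such as nidogen Nid2 (1.43 ± 0.14, adjusted p = 7.74e-05) and the collagen IV chain Col4a3 (3.07 ± 0.36, adjusted p = 0.000185). This became 2 higher and 1 lower without bladder replicate 1 or without urethral replicate 2 or 3. Of the 17 ligands, 8 were higher and 2 lower, with Vcam1, a ligand of the α4 and α9 subunits, at 204 ± 84.2 CPM in bladder and 60.01 ± 4.25 CPM in urethral mesenchyme (1.77 ± 0.26, adjusted p = 0.000843) and the elastic fibre protein gene Fbln5 at 156 ± 51.99 CPM in bladder and 52.9 ± 23.4 CPM in urethral mesenchyme (1.56 ± 0.33, adjusted p = 0.006099). With only the E14.5 libraries in the fit the ligand counts were 5 higher and 1 lower. Of the 27 adaptors, 9 were higher and 2 lower, Vcl among the higher ones (1.08 ± 0.23, adjusted p = 0.00634).

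**Figure D3:**
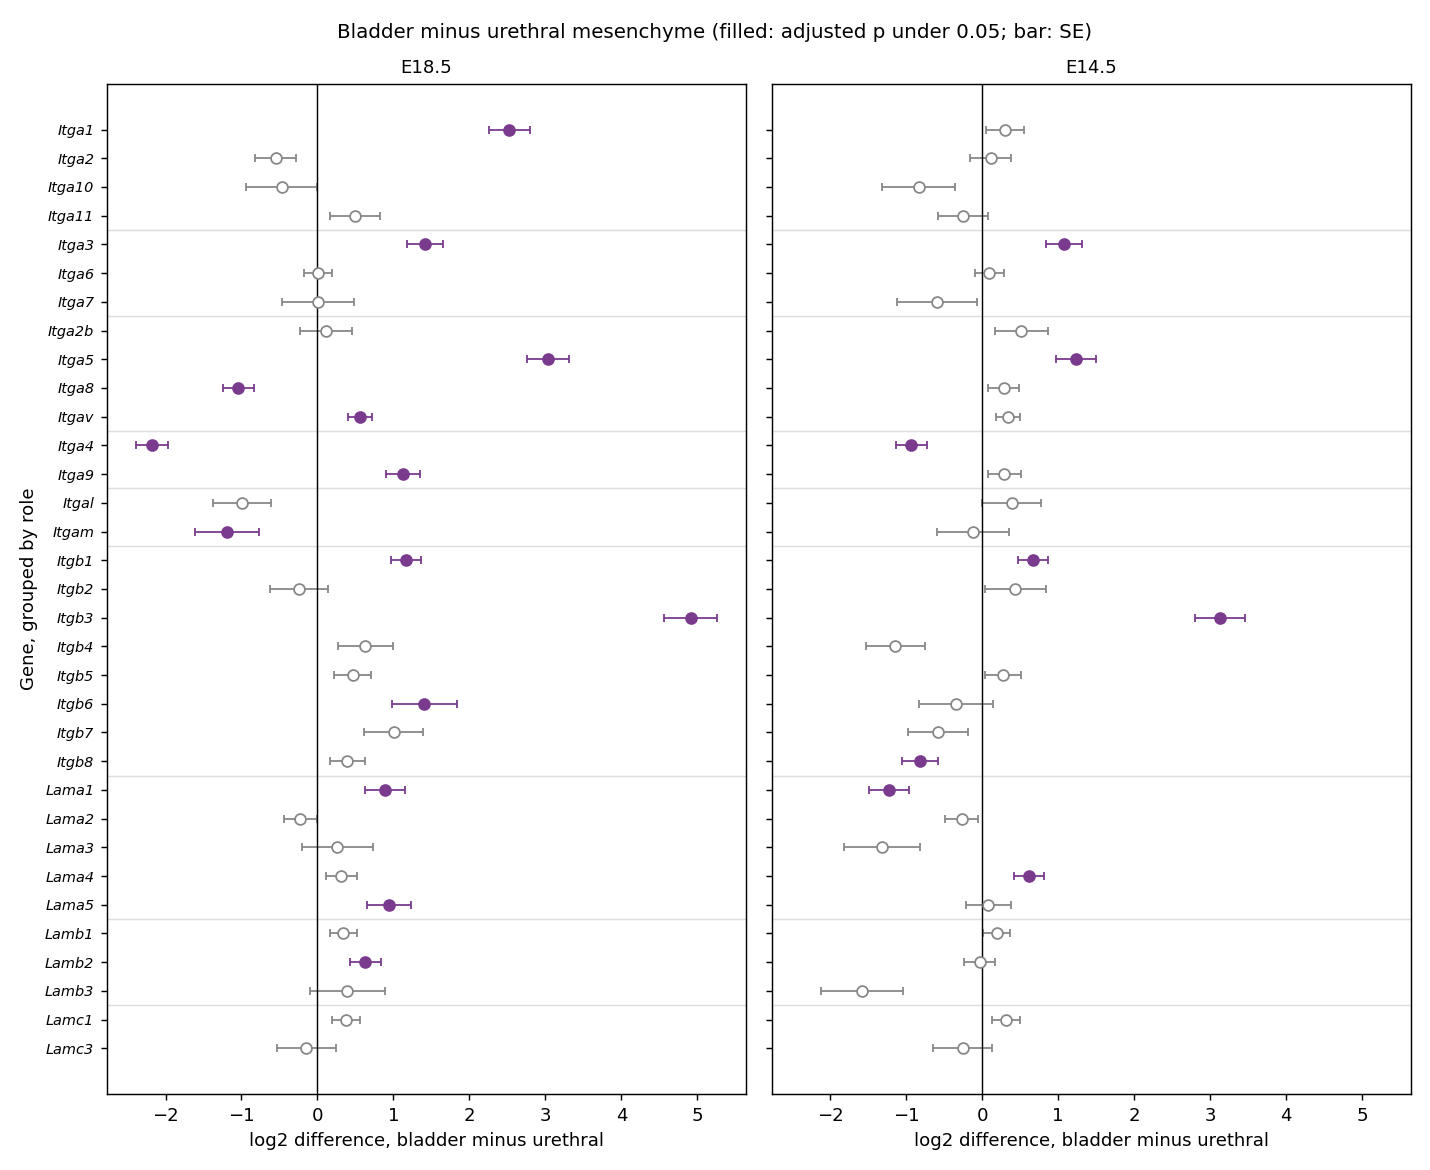
Log2 difference between bladder and urethral mesenchyme, bladder minus urethral, for the tested members reported by name at E18.5 (left) and E14.5 (right), with SE bars and filled points where the adjusted p was under 0.05. Itgb3 and Itga5 lie farthest to the right at both stages, Itga1 only at E18.5, and Itga4 is left of 0 at both.

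Whether the compartment difference itself changed between the stages was tested as an interaction, the difference at E18.5 minus that at E14.5. The difference, bladder minus urethral, was more positive at E18.5 for Itga1, Itga5, Itgb3, Lama1 and Itgb8, and more negative for Itga4 and Itga8. The test called 5 members positive and 2 negative, where 8.67% of all genes passed, 4.64% positive and 4.03% negative. The median was 0.432 over the 34 tested members and 0.0179 over all genes tested. Itga1 changed by 2.22 ± 0.36 (adjusted p = 0.00418), with 2.52 at E18.5 and 0.30 at E14.5. Itga5 changed by 1.79 ± 0.37 (adjusted p = 0.0117) and Itgb3 by 1.78 ± 0.43 (adjusted p = 0.0256), each higher in bladder at both stages. Lama1 was the member whose called difference had opposite signs, 0.89 at E18.5 and -1.23 at E14.5, a change of 2.11 ± 0.37 (adjusted p = 0.00519). Itga8 changed by -1.33 ± 0.29 (adjusted p = 0.0152), Itga4 by -1.25 ± 0.29 (adjusted p = 0.0196) and Itgb8 by 1.21 ± 0.33 (adjusted p = 0.0408). The Itgb8 difference of 0.39 at E18.5 did not pass the test (adjusted p = 0.223), while that of -0.82 at E14.5 did, and Itga8 was called lower at E18.5 but not called at E14.5. Per length, Itga5 exceeded Itga8 by 23.4 ± 4.15 times in bladder and 1.497 ± 0.489 times in urethral mesenchyme at E18.5, and by 3.15 ± 0.181 times in bladder and 1.64 ± 0.326 times in urethral mesenchyme at E14.5. Of the 27 adaptors 6 were positive, among them Lims2 (4.01, adjusted p = 0.00166) and Tns1 (2.1, adjusted p = 0.00323), a count that was 3 without urethral replicate 1 or 3 of E14.5, bladder replicate 1 of E18.5 or any E18.5 urethral library. Of the smooth muscle markers 7 of 10 were positive, and their part in the member changes was not tested. The call of Itgb3 ended without bladder replicate 3 or urethral replicate 1 or 3 of E14.5 or urethral replicate 1 or 3 of E18.5 (adjusted p 0.0502 to 0.0651), without replicate 1 of both E14.5 groups (0.0508) and with no filter on low counts (0.0767), and that of Itgb8 without bladder replicate 3 or urethral replicate 2 or 3 of E14.5, bladder replicate 1 or 3 of E18.5 or any E18.5 urethral library (0.0626 to 0.099). Without E14.5 bladder replicate 1 the count was 15, with Lamb3 at 3.13, Lama3 at 2.54, Itgb6 at 2.46, Itgb4 at 2.42, Itgb7 at 2.04, Itga7 at 1.84 and Lama5 at 1.39 among those added. Calls also arose for Itga9 without E18.5 bladder replicate 3 (0.0385), for Itgb4 without E18.5 bladder replicate 2 (0.0498) and for Itgal without E14.5 urethral replicate 1 (0.0358).

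Between E14.5 and E18.5 most members rose in bladder mesenchyme. All 3 laminin-binding α subunits, 5 of 8 β subunits and 9 of 11 laminin chains were higher at E18.5, and Itga4 and Itga8 were lower. Of the 34 tested members 20 were higher and 2 lower, where 45.7% of all genes passed, 23.7% higher and 22% lower. The libraries of the stages did not overlap for 55.8% of all genes, 28.5% higher and 27.3% lower. The median log2 difference was 0.99 over the 34 tested members and -0.023 over all genes tested. The 2 stages were deposited as separate count tables, so stage and table cannot be told apart, and the stage comparisons share their libraries with the compartment comparisons.

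The largest bladder increases were those of Itgb6, Itgb4, Lamb3, Lama3 and Itga7, most of which epithelia use to hold on to their basement membrane. Itgb4, which pairs with Itga6 in hemidesmosomes, had 211, 122 and 204 CPM in E18.5 bladder libraries, against 14.6, 5.26 and 5.62 CPM in E14.5 bladder libraries (4.4 ± 0.42, adjusted p = 2.49e-05). Lamb3 had 91.7, 53.8 and 91.2 CPM at E18.5, against 8.14, 1.699 and 1.77 CPM at E14.5 (4.36 ± 0.58, adjusted p = 0.000178), and Lama3 had 124, 71.4 and 107 CPM at E18.5, against 14.2, 3.895 and 3.55 CPM at E14.5 (3.81 ± 0.53, adjusted p = 0.000242). In each of these 3 genes the groups did not overlap and replicate 1 was the highest E14.5 bladder library. Itgb6 had 2.74, 1.49 and 0.389 CPM at E14.5 and the E18.5 values given above (4.43 ± 0.50, adjusted p = 4.45e-05). Itga7, a laminin receptor of muscle, had 29.3, 30.1 and 18.1 CPM at E18.5, against 4.297, 0.995 and 0.692 CPM at E14.5 (3.7 ± 0.55, adjusted p = 0.000271). Lama5 had 141, 47.3 and 75.6 CPM at E14.5, all below the E18.5 libraries (2.52 ± 0.31, adjusted p = 7.52e-05). The epithelial markers rose in the same comparison, 14 of 14, and the smooth muscle markers, 10 of 10. Of 11 skeletal muscle markers 5 were higher and 0 lower, where 45.7% of all genes passed, 23.7% higher. Their sum was also highest in replicate 1 at E14.5, and Acta1 held most of it in E18.5 bladder libraries. The part of these lists in the member increases was not tested. Without E14.5 bladder replicate 1 the log2 differences were 5.51 for Lamb3, 5.14 for Itgb6, 5.05 for Itgb4, 4.94 for Itga7 and 4.77 for Lama3.

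**Figure D4:**
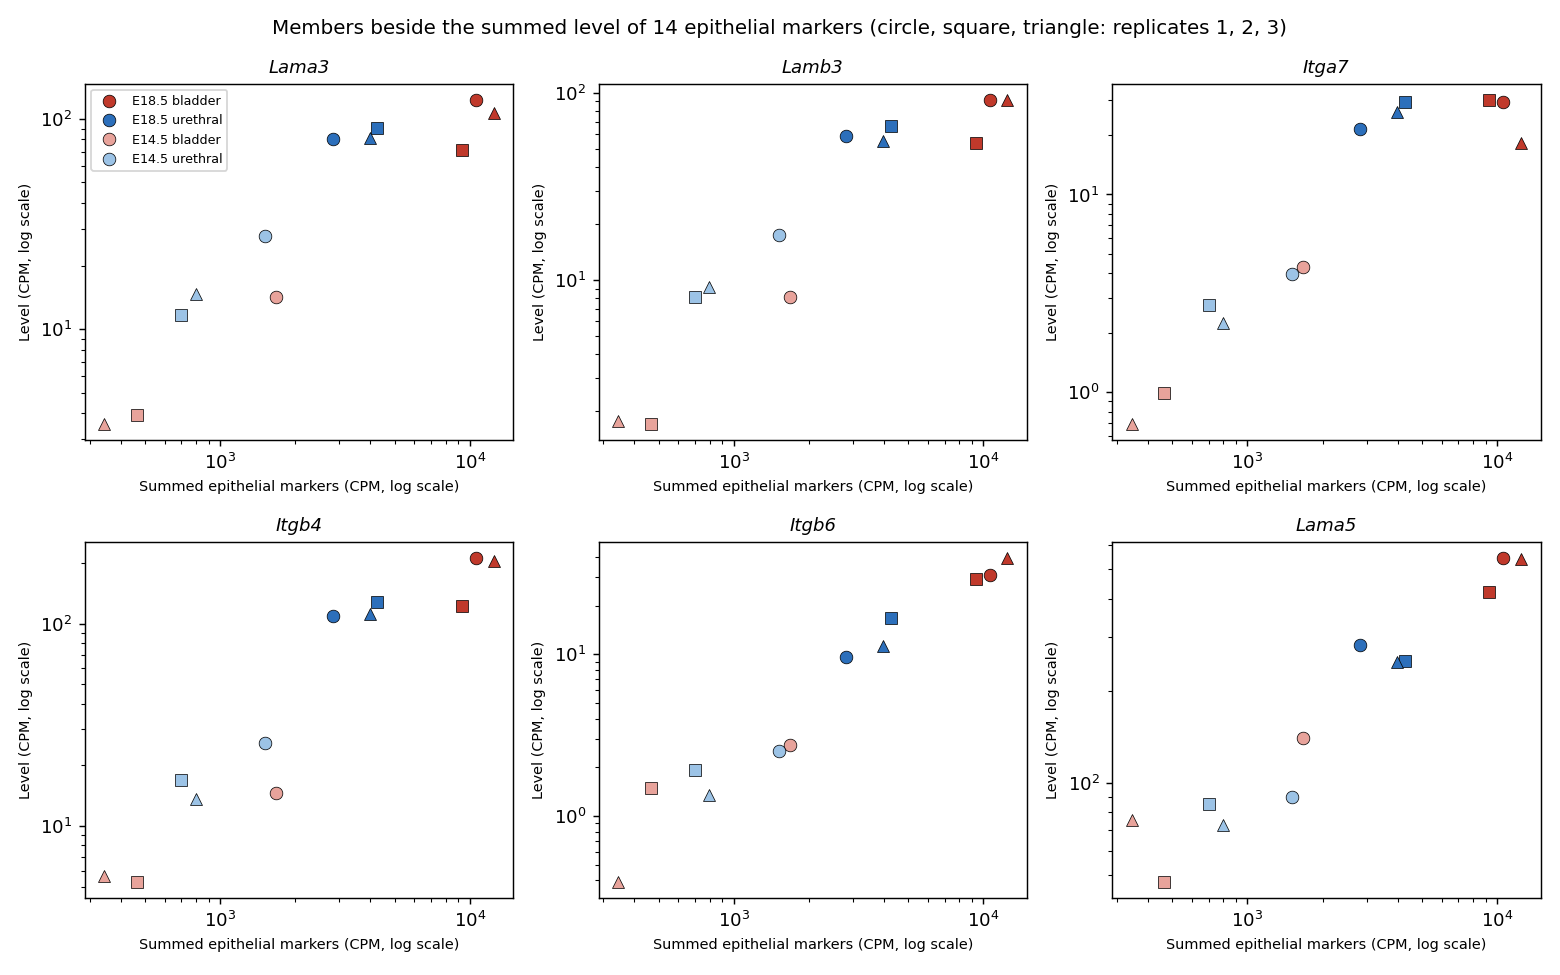
Levels of 6 members (CPM, log axis) against the summed level of 14 epithelial markers (CPM, log axis) in the 12 libraries, coloured by group with 1 symbol per replicate number. Within E14.5 bladder, replicate 1 is the highest on both axes for all 6 members, and the E18.5 bladder libraries lie at 9313 CPM or more of marker sum.

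Other integrins and laminins also changed between the stages in bladder mesenchyme. Itgb3 (2.41 ± 0.31, adjusted p = 0.0001003), Itga1 (2.31 ± 0.27, adjusted p = 4.69e-05), Itga3 (1.9 ± 0.24, adjusted p = 8.06e-05) and Itga5 (1.4 ± 0.26, adjusted p = 0.00102) rose, and Itgb1 rose by 0.70 ± 0.20 on the log2 scale (adjusted p = 0.0119). The E18.5 and E14.5 bladder libraries given above did not overlap for any of these 5 genes. Itga8 fell to 56.6 ± 13.7 CPM in E18.5 bladder mesenchyme, against 162 ± 20.3 CPM at E14.5 (-1.52 ± 0.21, adjusted p = 0.000123), and Itga4 fell to 42.9 ± 1.63 CPM, against 69.7 ± 6.99 CPM at E14.5 (-0.70 ± 0.20, adjusted p = 0.0144). Of the broadly expressed laminin chains, Lamc1 had 1016, 771 and 619.9 CPM at E18.5, against 401, 449 and 372 CPM at E14.5 (0.98 ± 0.18, adjusted p = 0.000915). Lamb1 had 914, 711 and 644 CPM at E18.5, against 431, 512 and 399 CPM at E14.5 (0.76 ± 0.18, adjusted p = 0.0045), and Lama4 had 609.8, 543 and 399 CPM at E18.5, against the E14.5 values above (0.71 ± 0.20, adjusted p = 0.0126). Lama2, the α chain of muscle basement membranes, had 115, 98.8 and 80.4 CPM at E18.5, against 62.5, 38.4 and 32.7 CPM at E14.5 (1.14 ± 0.22, adjusted p = 0.00113). Every one of these chains was higher in all 3 E18.5 libraries. Lamb2, Itga6, Itgb8 and Itgav rose by 1.51, 1.21, 1.11 and 0.72 on the log2 scale (adjusted p 0.000114, 0.000317, 0.00232 and 0.00248). Of the partner genes 11 of 12 basement membrane components and laminin receptors rose, such as Bcam (1.89 ± 0.25, adjusted p = 0.000104), as did 17 of 27 adaptors, such as Lims2 (4.32 ± 0.38, adjusted p = 1.39e-05). Ligands were split, with 6 higher and 5 lower of 17, where 23.7% of all genes were higher and 22% lower. The call of Itga4 ended without E14.5 bladder replicate 2 (adjusted p 0.0518) and that of Lama4 without E14.5 bladder replicate 3 (0.0605) or E18.5 bladder replicate 1 (0.0526), while calls arose for Itgb7 without E14.5 bladder replicate 1 (0.0134), Itga10 and Itga9 without E14.5 urethral replicate 2 (0.0264 and 0.0466) and Itga9 without E18.5 bladder replicate 3 (0.0099).

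In urethral mesenchyme most laminin chains were higher at E18.5 as well, while Itga1, Itga5, Itgb1 and Itgb3 did not pass the test. Of the 34 tested members 19 were higher and 1 lower at E18.5, where 24.4% of all genes passed, 13.6% higher and 10.8% lower. The libraries of the stages did not overlap for 44% of all genes, 21.3% higher and 22.7% lower. The median log2 difference was 0.765 over the 34 tested members and -0.0552 over all genes tested. By role, 9 of 11 laminin chains, all 3 laminin-binding α subunits, 3 of 8 β subunits and both tested leukocyte α subunits rose. The member that fell was Lama1, with the E18.5 urethral values given above against its E14.5 urethral values of 26.9, 43.4 and 59.8 CPM (-1.97 ± 0.26, adjusted p = 0.000514). Itga1 (0.08, adjusted p = 0.838), Itga5 (-0.39, adjusted p = 0.2999), Itgb1 (0.20, adjusted p = 0.504) and Itgb3 (0.63, adjusted p = 0.165) were not called.

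The largest differences were again those of Itga7, Itgb6, Itgb4 and Lamb3. Itga7 had 21.5, 29.5 and 26.2 CPM in E18.5 urethral libraries, against 3.97, 2.77 and 2.24 CPM at E14.5 (3.1 ± 0.52, adjusted p = 0.00217). Itgb4 had 109, 128 and 111 CPM at E18.5, against 25.7, 16.8 and 13.6 CPM at E14.5 (2.63 ± 0.39, adjusted p = 0.00124), and Itgb6 had 2.53, 1.94 and 1.36 CPM at E14.5, all below its E18.5 values (2.69 ± 0.47, adjusted p = 0.00224). Lamb3 had 58.5, 66.4 and 55.4 CPM at E18.5, against 17.5, 8.06 and 9.14 CPM at E14.5 (2.38 ± 0.52, adjusted p = 0.00863). The groups did not overlap for any of these genes. Lama3 had 80.5, 91.1 and 80.97 CPM at E18.5, against 27.7, 11.6 and 14.8 CPM at E14.5 (2.23 ± 0.49, adjusted p = 0.00902). Lama5 rose to 261 ± 19.1 CPM in E18.5 urethral mesenchyme, against 82.9 ± 8.85 CPM at E14.5 (1.66 ± 0.30, adjusted p = 0.00285). As in bladder, replicate 1 was the highest E14.5 library for Lama3, Lamb3, Itgb4, Itgb6 and Itga7, and 8 of 14 epithelial markers rose between the stages. All 11 skeletal muscle markers rose too, and summed to 787 to 1174 CPM in E18.5 urethral libraries, against 10.02 to 132 CPM at E14.5, where replicate 1 was again the highest. Of all genes 24.4% passed in this comparison, 13.6% higher and 10.8% lower. The part of either list in these increases, that of Itga7 included, was not tested. Over the alternatives described below, the log2 differences ranged from 1.986 to 2.673 for Lama3 and from 2.175 to 2.807 for Lamb3. The ranges were 2.446 to 2.927 for Itgb4, 2.427 to 2.915 for Itgb6 and 2.935 to 3.352 for Itga7. Lama4 had 445, 422 and 382 CPM at E18.5 and all libraries above those at E14.5 (1.01 ± 0.20, adjusted p = 0.00452), Lamc1 had 666, 643 and 543 CPM at E18.5, against 366, 268 and 348 CPM at E14.5 (0.92 ± 0.18, adjusted p = 0.00416), and Lama2 had 132, 100.3 and 112 CPM at E18.5, against 59, 53.2 and 48.7 CPM at E14.5 (1.1 ± 0.22, adjusted p = 0.00417). Itga3 (1.56, adjusted p = 0.00117) and Itga6 (1.3, adjusted p = 0.000893) rose too, Itga6 with 170.5, 186 and 155 CPM at E18.5, against 81.8, 57.2 and 68.4 CPM at E14.5.

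The leukocyte subunits Itgam (1.99, adjusted p = 0.00703), Itgal (1.17, adjusted p = 0.0412) and Itgb2 (1.48, adjusted p = 0.0179) were higher in E18.5 than in E14.5 urethral mesenchyme. Itgam averaged 1.91 ± 0.463 CPM at E18.5 and 0.483 ± 0.303 CPM at E14.5, Itgal 3.94 ± 0.623 CPM at E18.5 and 1.77 ± 0.9301 CPM at E14.5, and Itgb2 3.92 ± 1.83 CPM at E18.5 and 1.4 ± 0.399 CPM at E14.5. The 10 leukocyte markers, all of which rose in this comparison, summed to 289.8 to 307 CPM at E18.5 and 85.3 to 150.5 CPM at E14.5, and their part was not tested. In the urethral stage comparison 24.4% of all genes passed, 13.6% higher and 10.8% lower. Among partner genes 8 of 12 basement membrane components and laminin receptors rose, such as Col4a4 (2.05 ± 0.26, adjusted p = 0.000404), 8 of 17 ligands, such as periostin Postn (1.98 ± 0.32, adjusted p = 0.00161), and 6 of 27 adaptors, with 0 lower in the 3 lists. Leaving out 1 urethral library lowered these counts to as few as 4, 5 and 3. Among members, calls of Itgav, Itga2, Lamb1 and Itgal ended without urethral replicate 2 or 3 of E14.5 or any E18.5 urethral library (adjusted p 0.052 to 0.138), that of Itgb2 without E14.5 urethral replicate 2 or 3 or E18.5 urethral replicate 2 (0.056 to 0.0903), that of Lamb2 without E14.5 urethral replicate 3 (0.0528) and that of Itgal also without E14.5 bladder replicate 2 or 3 (0.0523 and 0.0501) and with only the urethral libraries in the fit (0.0607). Calls arose for Itga4 without E14.5 urethral replicate 1 (0.0134) or E18.5 urethral replicate 2 (0.0497) and for Itga10 without E14.5 urethral replicate 2 (0.0195), and Itgam reached 2.61 without E14.5 urethral replicate 1.

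**Figure D5:**
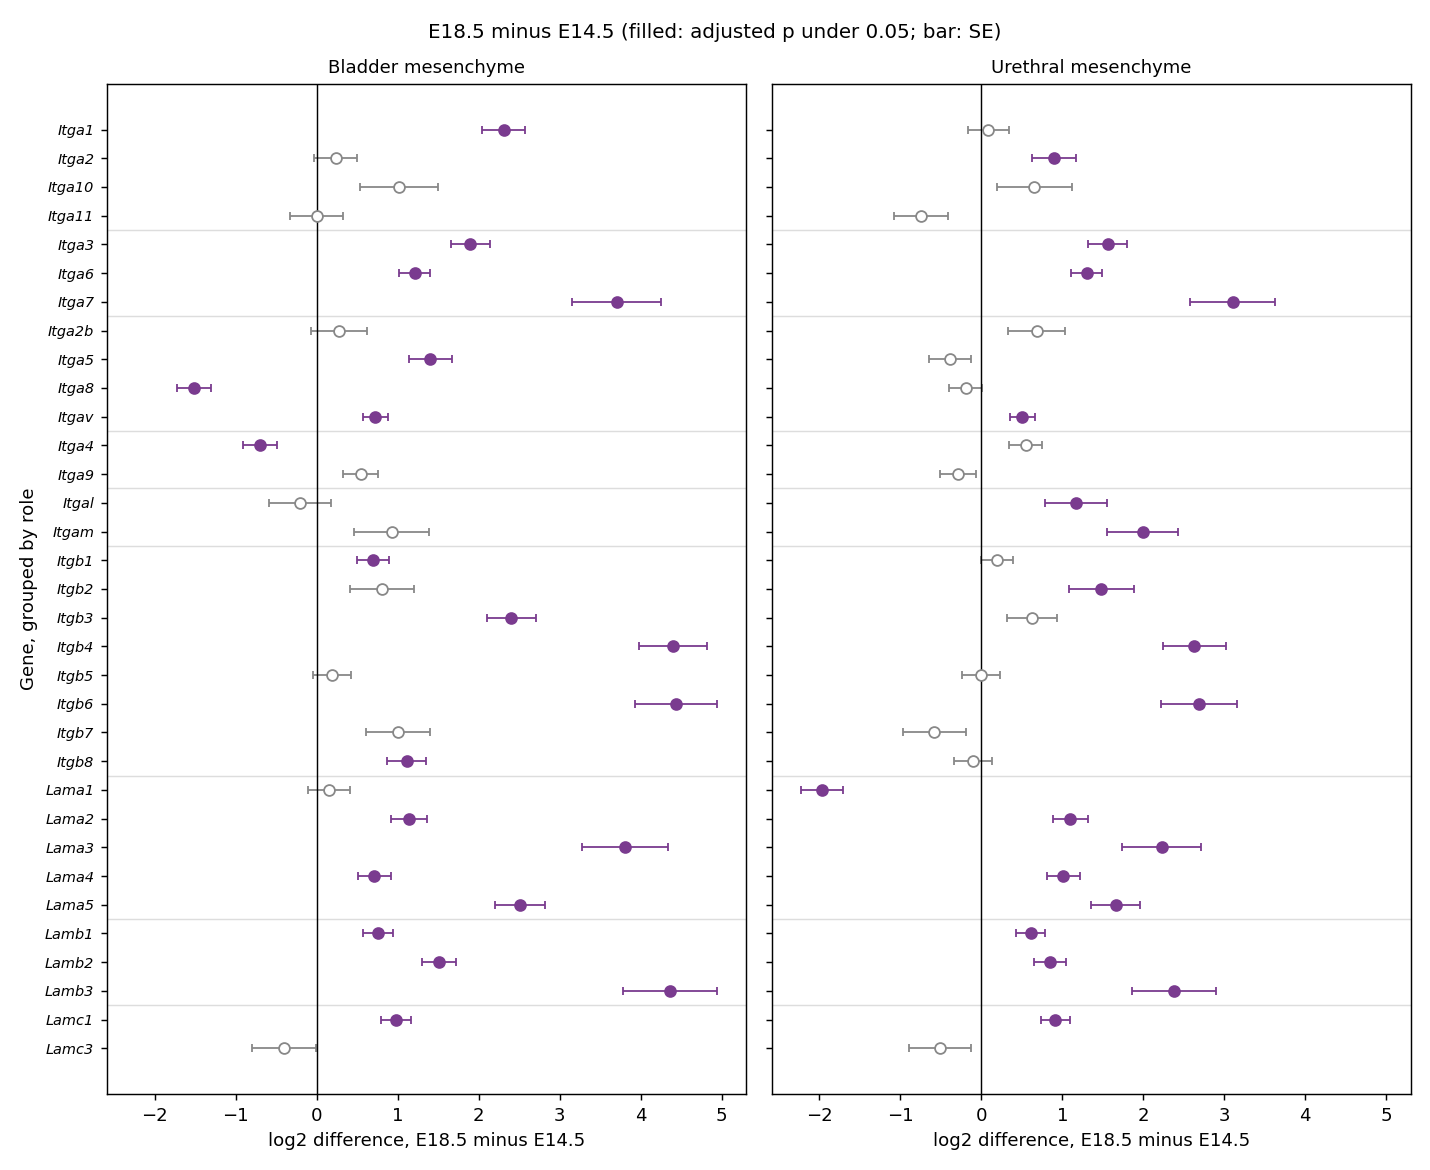
Log2 difference between the stages, E18.5 minus E14.5, for the tested members reported by name in bladder (left) and urethral mesenchyme (right), with SE bars and filled points where the adjusted p was under 0.05. Most points lie to the right of 0 in both panels. Lama1 is the one filled point left of 0 in urethral mesenchyme, and Itga4 and Itga8 are those in bladder mesenchyme.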

How the data were processed

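RNA-seq was analysed from 12 libraries in 4 groups of 3. The authors deposited unnormalized read counts for each gene, as 2 tables, 1 for each stage, which also list exon coordinates and summed exon length per the file headers. Per the submitters' processing notes, bcl2fastq, HISAT2 2.2.1, SAMtools 1.9 and GRCm38 were used; how reads were counted, with or without strand, and on which annotation is not given in the sources used here. Libraries were directional per the labels' protocols.

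Genes were kept by filterByExpr (minimum count 10, 18805 genes), scaled by TMM and tested with edgeR 4.0.16 in R 4.3.3 (robust quasi-likelihood F test) in 1 model of 4 group means with 8 residual degrees of freedom. SE was derived from the log2 difference and its F statistic. Benjamini-Hochberg adjustment covered all genes of a comparison. The scripts were tested on simulated data. Alternatives were DESeq2 1.42.0, limma-voom (limma 3.58.1), median-ratio size factors, no filter, a stricter filter, only the libraries compared, leaving out each library, or both E14.5 replicates numbered 1, and replicate number as a block. Counting floors cover counting error only.

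The members, roles and partner and marker lists were chosen with earlier results of these data known. Values in every library are given for members past the threshold in at least 1 comparison with a log2 difference of at least 1 in size and 5 CPM in the higher group, and for the most abundant member per length of each role. Of partner lists, up to 4 genes per comparison with the largest change qualify, and the text names some of these. Of the members, 1 is counted but not reported by name here. Protein sequences were not used here. TATAAA and GGGCGG were searched for after the CArG box.

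Same-numbered libraries were checked for pairing: their deviations from the group means correlated at 0.197, 0.193 and 0.286 at E18.5 (replicates 1 to 3), each over 0.1, and the numbers were taken to pair the E18.5 libraries. No label says that a number marks a litter. The reported values do not use the block.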

Additional observations from a re-analysis of the deposited data

Results flagged for a closer look

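The compartment difference of 7 members changed between the stages by the interaction test (edgeR's quasi-likelihood test, difference at E18.5 minus difference at E14.5, 3 libraries in each of 4 groups). Itga1 changed by 2.22 ± 0.36 on the log2 scale (adjusted p = 0.00418), and its E18.5 bladder libraries were all above every other library. Lama1 changed by 2.11 ± 0.37 (adjusted p = 0.00519), higher in bladder in all libraries at E18.5 and lower in all at E14.5. Itga5 changed by 1.79 ± 0.37 (adjusted p = 0.0117) and Itgb3 by 1.78 ± 0.43 (adjusted p = 0.0256), both higher in bladder at each stage. Itgb8 changed by 1.21 ± 0.33 (adjusted p = 0.0408). Itga8 changed by -1.33 ± 0.29 (adjusted p = 0.0152) and Itga4 by -1.25 ± 0.29 (adjusted p = 0.0196).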

How the results depend on the processing

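The number of members called in the 5 comparisons was 8 (bladder against urethral at E14.5), 14 (the same at E18.5), 7 (the change of that difference), 22 (E18.5 against E14.5 in bladder) and 20 (in urethral mesenchyme). With median-ratio size factors, DESeq2, limma-voom, no filter, a stricter filter or only the libraries compared, every count stayed within 1.5 times these. For the change of the difference, only the libraries compared is the reported fit itself. Without replicate 1 of both E14.5 groups the counts were 15 at E14.5, 19 at E18.5, 15 for the change, 24 in bladder and 22 in urethral mesenchyme. Leaving out each library in turn gave 5 to 13 calls at E14.5, 9 to 15 at E18.5, 5 to 15 for the change, 21 to 24 in bladder and 14 to 21 in urethral mesenchyme. Among members reported by name, the sign reversed for Itga10 in the E14.5 comparison, where it was not called. Leaving out each library in turn, it ranged from -1.21 to 0.0148, positive without urethral replicate 2. With replicate number as a block the counts were 10, 14, 10, 22 and 20, and at E18.5, where the numbers were taken to pair the libraries, all 14 calls held. At E14.5 the pairing correlations were 0.191, -0.0285 and 0.206, not all over 0.1, so the numbers were not taken to pair these libraries. This rule cannot show that they are unpaired. In the E14.5 comparison the block ended the call of Lama4 and added Lama3, Lamb3 and Itgb4. In the change of the difference it ended that of Itgb3 (adjusted p 0.0534) and added Lama3, Lamb3, Itgb4 and Itgb6. Other tools and filters also added calls. With no filter, 11 of the 12 calls at E18.5 and 6 of the 7 for the change were calls of the reported fit. At E14.5 Lama3, Lamb3 and Itgb4 passed with DESeq2 and with limma-voom, and Lamb3 and Itgb4 with the stricter filter. At E18.5 Itgal passed with DESeq2, limma-voom and only the E18.5 libraries, Itgb7 with limma-voom, and Itgb4 and Itgb5 with only the E18.5 libraries. For the change, Itgb4 passed with DESeq2 and limma-voom, Itgb6 with DESeq2 and Lamb3 with limma-voom. Between stages, Itgb7 passed in bladder with DESeq2, limma-voom and the stricter filter, Itga9 in bladder with DESeq2 and Itga4 in urethral mesenchyme with DESeq2.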

Other observations

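Some members were detected at low levels in every group. Itga10 and Itga11, collagen receptor α subunits of cartilage and fibroblasts, averaged 3.003 ± 0.497 and 5.04 ± 1.64 CPM in E18.5 bladder, 4.18 ± 0.608 and 3.58 ± 0.365 CPM in E18.5 urethral, 1.49 ± 0.643 and 5.05 ± 2.17 CPM in E14.5 bladder and 2.63 ± 2.02 and 6.01 ± 1.09 CPM in E14.5 urethral mesenchyme. Neither was called in any comparison, and 33.5% of the Itga10 exon length overlaps exons of Gm42957 on the same strand. Lamc3 averaged 9.07 ± 2.08 CPM in E18.5 bladder, 10.04 ± 3.63 CPM in E18.5 urethral, 12.03 ± 6.895 CPM in E14.5 bladder and 14.3 ± 0.9202 CPM in E14.5 urethral mesenchyme and was not called in any comparison.

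Skeletal muscle markers were split between the E18.5 compartments, where 34.8% of all genes passed, 18.52% higher and 16.2% lower. Of 11, Acta1, Ckm and Tnnt3 were higher and Myod1, Myog, Myf5, Pax7, Myh3 and Chrna1 lower in bladder mesenchyme, 3 and 6 in all, a median of -6.81, while the list summed to 3060.1 to 4902 CPM in bladder, against 787 to 1174 CPM in urethral libraries. Acta1, skeletal actin, held most of the bladder sum at 3166 ± 722 CPM in bladder and 179 ± 13.03 CPM in urethral mesenchyme. Myod1, the skeletal muscle determination factor, averaged 0.0571 ± 0.05396 CPM in E18.5 bladder and 40.3 ± 7.89 CPM in E18.5 urethral mesenchyme. Itga7, the laminin receptor of both muscle types, had a log2 difference of 0.01 between these groups, which did not pass the test (adjusted p = 0.994).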
